A study of Homo sapiens with 2 samples.

Results

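The dual-specificity phosphatases of the MAP kinases are described here as 9 genes of 57485 listed genes, taken by symbol from the expression tables of both libraries. They fall into 3 classes of 3 genes. DUSP1, DUSP2 and DUSP4 are the nuclear inducible members, DUSP5, DUSP6 and DUSP7 the ERK-selective members, and DUSP8, DUSP10 and DUSP16 the JNK/p38-selective members. All 9 reached 1 FPKM in at least 1 library and were among the 14859 genes compared. FPKM, fragments scaled by transcript length and library size, is a level per length, so levels of different genes can be set side by side.

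Poly(A) RNA of ARP1, a human multiple myeloma cell line, was sequenced in pairs of 150 bases. The cells carried a lentivirus whose short hairpin RNA is switched on by doxycycline (Dox) and is directed against SRD5A1, a steroid 5α-reductase. One library came from untreated cells and one from cells given Dox, and the dose and time of Dox for these libraries are not given in the sources used here. The title of the library labelled with Dox names SRD5A1, whereas its genotype label names a hairpin against SRD5A2. No library of cells with Dox and without the hairpin was analysed here, so an effect of Dox itself and one of the hairpin cannot be told apart. Since each condition has 1 library, the spread between replicates is unknown, and each ratio below compares 2 libraries and not the conditions. In bulk RNA, fewer cells expressing a gene and less RNA per cell cannot be told apart either.

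MAP kinases are switched on when an upstream kinase phosphorylates a threonine and a neighbouring tyrosine in their activation loop. The dual-specificity phosphatases remove both phosphates and so switch the kinase off. The nuclear inducible members are encoded by genes that growth factors and stress switch on quickly, and they act on ERK, JNK and p38 to differing degrees. Of the ERK-selective members, DUSP5 sits in the nucleus, where it also anchors ERK, while DUSP6 and DUSP7 are cytoplasmic. DUSP6 is a known feedback gene of ERK signalling. DUSP8, DUSP10 and DUSP16 prefer the stress kinases JNK and p38. In myeloma, RAS mutations that feed this pathway are common.

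The library without Dox held 45918570 expected counts and the library with Dox 48728927, and 13445 and 14379 genes reached 1 FPKM. At this depth 3 counts correspond to 0.0327 and 0.0308 FPKM for a transcript of 2000 bases, so each member lay above that floor in both libraries. SRD5A1, the targeted gene, had 13.0 FPKM without Dox and 25.9 FPKM with Dox, a log2 ratio of 0.98. This RNA value goes against the label of a knockdown, whereas the paper reports lower SRD5A1 protein with Dox by western blotting in ARP1. Each library is therefore named by its label, and directions are between the library labelled with Dox and the library labelled without it. The 8 plasma cell markers were all present, at 15.7 FPKM or more in each library, with a summed level of 2398 and 2305 FPKM. Summed markers of B cells (1.42 and 1.06 FPKM, 1 of 3 at 0), T cells (0.31 and 0.22, 2 of 3 at 0), monocytes (0.51 and 0.96, 0 of 3 at 0), stroma (0.15 and 0.46, 1 of 3 at 0) and erythroid cells (3.47 and 3.16, 0 of 2 at 0) were low in both. Log2 ratios were taken with a pseudocount of 0.1 FPKM, and their median over the 14859 genes was 0.15.

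The ratios of the JNK/p38-selective class lay above those of the other classes, whose ranges overlapped each other. The gap was narrow, from DUSP1 at 0.25 to DUSP16 at 0.40. The intervals for counting error of these genes, described below, overlapped (0.07 to 0.45 for DUSP1 and 0.33 to 0.49 for DUSP16). The JNK/p38-selective members were each higher in the library labelled with Dox, with a median log2 ratio of 1.0 (0.40 to 1.93). The ERK-selective members had a median of -0.52 (-0.74 to 0.03), and none of the 3 lay above the median of all genes. The nuclear inducible members were mixed, with a median of -0.33 (-1.21 to 0.25). Over the 9 genes the median was 0.03, with 5 above 0 and 4 below. Of the 14859 genes compared, 8673 were above 0 and 6165 below, so a ratio above 0 was common.

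**Figure D1:**
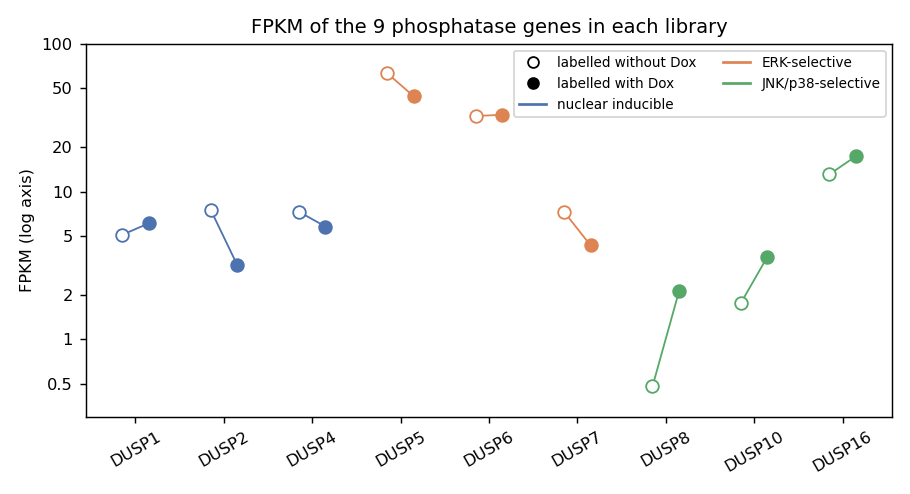
FPKM on a log axis for the 9 phosphatase genes, with open circles for the library labelled without Dox, filled circles for the library labelled with Dox, and colours for the 3 classes (1 library per condition, no error bars). DUSP5 and DUSP6 were the most abundant in both libraries, the green lines of DUSP8, DUSP10 and DUSP16 all run upward, and DUSP2 shows the steepest downward line.

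The order of the levels was led by the same 3 genes in both libraries, DUSP5, DUSP6 and DUSP16. Without Dox they were followed by DUSP2, DUSP4, DUSP7, DUSP1, DUSP10 and DUSP8. With Dox they were followed by DUSP1, DUSP4, DUSP7, DUSP10, DUSP2 and DUSP8. The middle of the order was crowded, since DUSP2, DUSP4 and DUSP7 lay between 7.30 and 7.56 FPKM without Dox. Whether such neighbours differ beyond replicate spread cannot be said from 1 library each. Among all genes compared, DUSP5 stood at the 87.4th percentile of FPKM without Dox and the 81.8th with Dox, while DUSP8 stood at the 4.29th and the 16.8th.

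Of the 9 members, 1 passed 2-fold in each direction. DUSP8 was the 1 member more than 2-fold higher, beside 2517 of the 14859 genes (16.9%), and DUSP2 the 1 member more than 2-fold lower, beside 953 genes (6.41%). With 9 members, 1 gene in each direction is near these background shares. DUSP8 reached 1 FPKM only in the library labelled with Dox, so it was compared only through the library in which it was higher. The exact test of edgeR on the rounded counts, run at an assumed coefficient of 0.4 for the biological variation between replicates, called 0 of the 9 members and 0.833% of the 19934 genes it tested. With an assumed coefficient of 0.2, it called 2 members. DUSP8 was higher (edgeR adjusted p = 0.00191, 9.82% of genes called higher) and DUSP2 lower (edgeR adjusted p = 0.00151, 5.67% of genes called lower). These calls rest on the assumed coefficient and compare the libraries only.

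**Figure D2:**
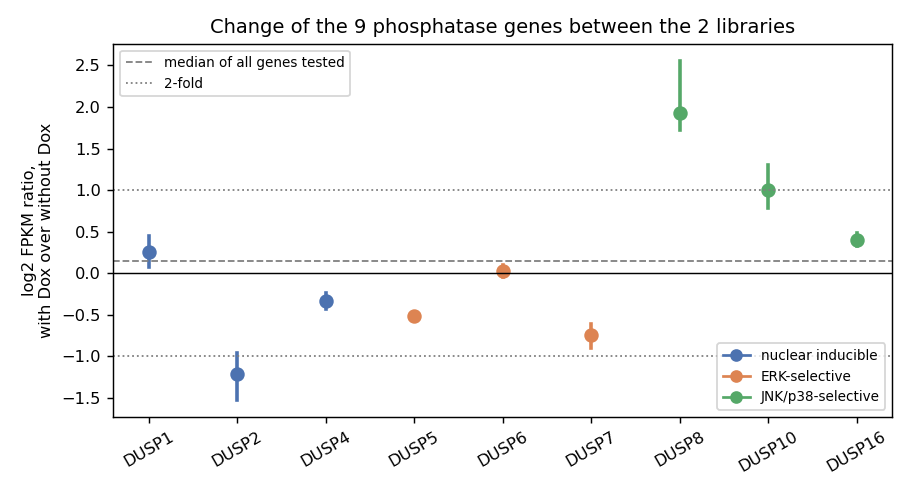
Log2 FPKM ratio of each phosphatase gene, with Dox over without Dox (points, pseudocount of 0.1 FPKM), with vertical lines for the 95% exact binomial interval of the counts, computed without a pseudocount and covering counting error only. The dashed line is the median of all genes compared (0.15) and the dotted lines mark 2-fold. DUSP8 lies above the upper dotted line, DUSP10 on it at 1.0, and DUSP2 below the lower one.

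DUSP1 (ENSG00000120129.5, chr5:172768090-172771195, reverse strand, GRCh38) encodes an immediate early phosphatase that acts on p38 and JNK as well as ERK. It had 416 counts and 5.10 FPKM without Dox and 527 counts and 6.10 FPKM with Dox. Its log2 ratio was 0.25, with a 95% exact binomial interval of 0.07 to 0.45 for the ratio of its counts per length. This and the following intervals are Clopper-Pearson intervals that cover counting error only. The ratio was close to the median of all genes, and 44.8% of the genes compared had a larger one. When the libraries were scaled by TMM factors, which brought the median of all genes to -0.05, DUSP1 stood at 0.05.

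DUSP2 (ENSG00000158050.4, chr2:96143166-96145440, reverse strand) encodes a nuclear phosphatase first known from activated lymphocytes. It had 409 counts and 7.56 FPKM without Dox and 148 counts and 3.20 FPKM with Dox. The level with Dox was 2.32-fold lower, a log2 ratio of -1.21 (counting interval -1.52 to -0.96). DUSP2 had the lowest ratio of the 9 members, and 4.23% of all genes compared had a ratio this low or lower. Its place in the order of the members moved from the fourth to the eighth.

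DUSP4 (ENSG00000120875.8, chr8:29333064-29350668, reverse strand) encodes the third nuclear inducible phosphatase, which acts on ERK and JNK. It had 1747 counts and 7.31 FPKM without Dox and 1481 counts and 5.80 FPKM with Dox. The log2 ratio was -0.33 (counting interval -0.43 to -0.23). The difference was larger than counting error, and 24.8% of all genes lay at or below it. Summed over the class, the nuclear inducible members had 19.97 FPKM without Dox and 15.1 FPKM with Dox.

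DUSP5 (ENSG00000138166.5, chr10:110497838-110511544, forward strand), the nuclear ERK phosphatase, was the most abundant member in both libraries. It had 5533 counts and 63.2 FPKM without Dox and 4492 counts and 44.2 FPKM with Dox. The log2 ratio was -0.52 (counting interval -0.58 to -0.46), and 82.6% of all genes had a larger ratio. Its share of the summed FPKM of the 9 members was 45.7% without Dox and 36.9% with Dox. A pseudogene listed as DUSP5P had 23 and 51 counts, few beside the counts of DUSP5.

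DUSP6 (ENSG00000139318.7, chr12:89347232-89353271, reverse strand), the cytoplasmic ERK phosphatase and feedback gene, stood almost level between the libraries. It had 2636 counts and 32.6 FPKM without Dox and 2794 counts and 33.1 FPKM with Dox. The log2 ratio was 0.03, and its counting interval of -0.05 to 0.10 included 0. The sign of so small a ratio turned with the scaling, to -0.18 with TMM factors or DESeq2 size factors, a value below that interval. Its share of the summed member FPKM was 23.5% without Dox and 27.7% with Dox. DUSP6 was the 1 member whose counts were not whole, and an antisense gene, AC024909.2, shares 1875 exonic bases with it on the opposite strand. That gene was given 121 counts without Dox and 87.6 with Dox, and since the strand used in counting is not stated in the sources used here, reads of the pair cannot be told apart.

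DUSP7 (ENSG00000164086.9, chr3:52048919-52056550, reverse strand), the other cytoplasmic ERK phosphatase, was the lowest of its class in both libraries. It had 1034 counts and 7.30 FPKM without Dox and 648 counts and 4.32 FPKM with Dox. The log2 ratio was -0.74 (counting interval -0.90 to -0.62), short of 2-fold, and 11.4% of all genes lay at or below it. Within the ERK-selective class, then, the nuclear enzyme and 1 of the cytoplasmic enzymes had lower FPKM with Dox beyond counting error, and DUSP6 did not. This contrast depends on the scaling. With TMM factors DUSP5 stood at -0.73, DUSP7 at -0.95 and DUSP6 at -0.18.

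DUSP8 (ENSG00000184545.10, chr11:1554044-1571920, reverse strand) encodes a phosphatase of JNK and p38 and was the scarcest member in both libraries. It had 61 counts and 0.48 FPKM without Dox and 264 counts and 2.11 FPKM with Dox. The level with Dox was 3.81-fold higher, a log2 ratio of 1.93. Without the pseudocount, which pulls the ratio of such a low gene toward 0, the log2 ratio was 2.13 (counting interval 1.72 to 2.55), and with a pseudocount of 1 FPKM it was 1.07. DUSP8 had the largest ratio of the 9 members, and 5.20% of all genes compared had a larger one. A pseudogene listed as DUSP8P2 had 0 counts in both libraries.

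DUSP10 (ENSG00000143507.17, chr1:221701424-221742176, reverse strand) encodes a phosphatase of p38 and JNK that is found in both nucleus and cytoplasm. It had 184 counts and 1.76 FPKM without Dox and 356 counts and 3.62 FPKM with Dox. The log2 ratio was 1.0, at 2-fold and not past it, and without the pseudocount it was 1.04 (counting interval 0.78 to 1.31). It ranked higher than 83.0% of all genes.

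DUSP16 (ENSG00000111266.8, chr12:12474210-12562383, reverse strand) encodes a mainly JNK-directed phosphatase that shuttles between nucleus and cytoplasm. It was the most abundant member of its class, with 2108 counts and 13.1 FPKM without Dox and 3596 counts and 17.4 FPKM with Dox. The log2 ratio was 0.40 (counting interval 0.33 to 0.49), above the median of all genes by 0.25 and far from 2-fold, and 37.3% of all genes had a larger ratio. DUSP16 thus had the smallest ratio of its class and gave most of the summed level of that class. The counts of DUSP16 without division by length gave a larger log2 ratio, 0.68.

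Added up, the 9 genes had 138.4 FPKM without Dox and 119.8 FPKM with Dox, a ratio of 0.866. The ERK-selective members made up 103.1 FPKM without Dox and 81.6 FPKM with Dox, or 74.5% and 68.1% of the total. The JNK/p38-selective members made up 15.3 FPKM without Dox and 23.1 FPKM with Dox, or 11.1% and 19.3%, a sum that was 1.51-fold higher with Dox. The nuclear inducible members made up 14.4% and 12.6%. ERK-selective levels therefore exceeded JNK/p38-selective levels 6.73-fold without Dox and 3.54-fold with Dox. The sums of both classes include noncoding transcripts, described below. That of DUSP5 had 14.9 FPKM without Dox and 5.68 FPKM with Dox. For the most abundant members of these classes, DUSP5 over DUSP16, the ratio was 4.84 without Dox and 2.55 with Dox. These genes gave most of the summed level of their classes, so their ratio is not independent of the class ratio. With a pseudocount of 1 or 0.01 FPKM, or with counts not divided by length, 3 of 3 JNK/p38-selective and 0 of 3 ERK-selective members again lay above the median of all genes of that setting. TPM, TMM factors and DESeq2 size factors shift all genes alike, so they leave this count as it is by construction.

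**Figure D3:**
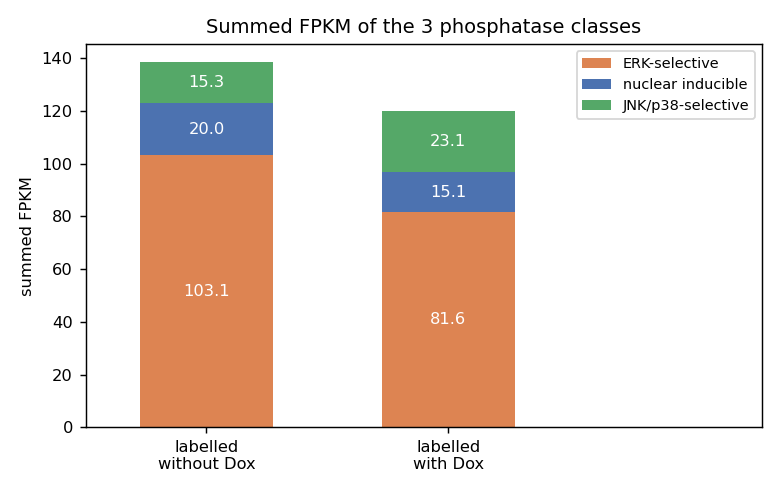
Summed FPKM of the 3 phosphatase classes in each library, stacked from a baseline of 0 with each class sum written on its segment (3 genes per class, 1 library per condition, no error bars). The ERK-selective segment is 103.1 without Dox and 81.6 with Dox, and the JNK/p38-selective segment is 15.3 and 23.1.

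A ratio per gene can hide a shift between its transcripts. The tables list for each gene a mean transcript length weighted by the estimated abundance of its transcripts, so with 2 transcript lengths the share of each can be worked out from it. These shares come from the authors' estimates, carry no interval, and are printed as descriptions. DUSP1 has 1 listed transcript and could not shift. DUSP4 and DUSP7 hardly shifted, with 96.5% and 98.02% of the FPKM of DUSP4 and 95.1% and 94.9% of that of DUSP7 in the longest coding transcript without and with Dox. For DUSP6, with 5 transcripts, the bounds were too wide to tell (1.96% to 37.6% and 0.69% to 36.8%).

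Among the members with 2 transcripts the largest shift was in DUSP2, which has a coding transcript of 1688 bases (ENST00000288943.4) and a noncoding one of 773 bases that retains intron sequence (ENST00000488952.1). The coding transcript held 70.8% of the gene's FPKM without Dox and 45.99% with Dox. In levels, the coding transcript had 5.35 FPKM without Dox and 1.47 FPKM with Dox, a log2 ratio of -1.79. The retained-intron transcript had 2.21 FPKM without Dox and 1.73 FPKM with Dox, a log2 ratio of -0.34. The coding RNA of DUSP2 was therefore further apart between the libraries than the gene value shows. Of 535 genes with 2 transcripts, the longer at least 1.2 times the shorter, and at least 100 counts in each library, 5 (0.935%) had a fall in the longer transcript's share as large as the 24.8 points of DUSP2, and the median change was 0.0 points. With 148 counts with Dox, DUSP2 lay near that limit of counts. Among 10665 genes with several transcripts and at least 100 counts in each library, 2.33% had a larger fall in mean length.

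The retained stretch lies in intron 2 of DUSP2, which spans 387 bases between exon 2 (chr2:96144761-96144882) and exon 3 (chr2:96144154-96144373), and 244 of these bases are part of the shorter transcript. Both transcripts share the start of exon 3, and they differ in what comes before it. The sequences at this point are shown because a read across it tells the transcripts apart, with the 15 bases upstream of exon 3 in capitals (GENCODE release 29, GRCh38, reverse strand, 5′ to 3′). The upstream bases lie at chr2:96144761-96144775 in the spliced form and at chr2:96144374-96144388 in the retained form, and the shared bases at chr2:96144359-96144373.
DUSP2 exon 2 joined to exon 3: CCTGTCTACGACCAGggtggccctgtggag
DUSP2 intron read into exon 3: CTCTGTTCCCTCCAGggtggccctgtggag
The deposited tables hold no counts per junction, so reads over either sequence were not counted here.

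DUSP10 also shifted. Its coding transcript (ENST00000366899.3, 2676 bases) held between 85.3% and 91.8% of the gene's FPKM without Dox and between 60.8% and 78.0% with Dox, and these bounds did not overlap. Of the 10665 genes with several transcripts and at least 100 counts in each library, 6.01% had a larger fall in mean length. The other 3 transcripts, of 803 to 1625 bases, are annotated as targets of nonsense-mediated decay, the pathway that removes RNAs with an early stop codon. They lack exon 2 of the coding transcript (chr1:221738934-221739787), which holds the start of the coding sequence. Their summed level was 0.145 to 0.258 FPKM without Dox and 0.797 to 1.42 FPKM with Dox. The coding transcript had 1.5 to 1.62 FPKM without Dox and 2.20 to 2.82 FPKM with Dox, a log2 ratio of 0.42 to 0.87. The coding RNA of DUSP10 was thus higher with Dox by less than the 1.0 of the whole gene.

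DUSP5 shifted the other way. Its coding transcript (ENST00000369583.3, 2557 bases) held 76.5% of the gene's FPKM without Dox and 87.1% with Dox, and 39 of the 535 genes (7.29%) had a rise as large. The coding transcript had 48.4 FPKM without Dox and 38.5 FPKM with Dox, a log2 ratio of -0.33. The shorter noncoding transcript (ENST00000468749.1, 819 bases) had 14.9 FPKM without Dox and 5.68 FPKM with Dox, a log2 ratio of -1.37. The noncoding transcript thus had the larger difference in ratio, while the coding transcript remained the main RNA of DUSP5 in both libraries.

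For DUSP8 the long coding transcripts and the short noncoding one were both higher with Dox. The coding transcripts, of 4455 and 4480 bases, had 0.295 to 0.297 FPKM without Dox and 1.2 FPKM with Dox, a log2 ratio of 1.71 to 1.72. The noncoding transcript of 637 bases had 0.183 to 0.185 FPKM without Dox and 0.907 to 0.915 FPKM with Dox, a log2 ratio of 1.82 to 1.84. The pseudocount of 0.1 FPKM was added to each of these low levels and pulls their ratios toward 0. Both ratios therefore lie below the 1.93 of the whole gene and cannot be set against it. The listed mean length of DUSP16 was 3753 bases without Dox and 4499 with Dox, and among the same 10665 genes 4.43% had a larger rise in length. The share of its longest transcript was 19.0% to 70.0% without Dox and 59.3% to 84.9% with Dox, bounds that overlap.

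Promoter sequence was at hand for 7 of the 9 members, in 8 windows of 250 bases before to 50 bases after a RefSeq start (GRCh38.p14), and DUSP4 and DUSP5 have no entry. Letters of 5 motifs were looked for on both strands. The full cyclic AMP response element, TGACGTCA, was found in 2 of the 8 windows, those of DUSP1 and DUSP8, and in 1.85% of all 35116 windows. The E-box CACGTG was found in DUSP1 and DUSP2 and in 7.26% of all windows. The AP-1 letters TGANTCA (7.71% of all windows), the C/EBP-ATF letters TGATGNAA (3.62%) and the ETS letters CCGGAA (17.2%) were in none of the 8 windows. The stretches with the first motif are shown, since DUSP8 holds it at 2 places and had the highest ratio of the members, with the motif in capitals (reverse strand, 5′ to 3′). The motif begins 125 bases before the start of DUSP1 (stretch at chr5:172771302-172771331) and 118 and 74 bases before that of DUSP8 (stretches at chr11:1572371-1572400 and chr11:1572327-1572356). The RefSeq starts of DUSP7, DUSP8 and DUSP16 lie outside the GENCODE limits of these genes given above, on the upstream side. For DUSP8 and DUSP16 the whole window lies outside.
DUSP1: ggcagggcgggTGACGTCAccgccccgtca
DUSP8, outer: ccgggctccgcTGACGTCAcctgcccccga
DUSP8, inner: ttggctgcaggTGACGTCAggggctttttt
DUSP1, with 1 such match, had a log2 ratio of 0.25, and DUSP8, with 2, had 1.93. The members with a window and no such match spanned the range below DUSP8. They were DUSP10 (1.0), DUSP16 (0.40), DUSP6 (0.03), DUSP7 (-0.74) and DUSP2 (-1.21). A relation between matches and ratios was not tested. A match of letters is a description and does not show that a factor was bound, and no binding was measured.

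Around the 9 members, the kinases and other phosphatases of the pathway gave no shared direction. For every list below, counts past 2-fold stand beside 16.9% of all genes compared upward and 6.41% downward. With so few genes per list, these counts are descriptions and not results about the lists. Of the related family members, the catalytically inactive STYXL1 had 37.4 FPKM without Dox and 51.2 FPKM with Dox (log2 ratio 0.45). DUSP9, a further ERK-directed phosphatase named here after its values were seen, stayed under 1 FPKM (0.94 and 0.35). Of 14 atypical dual-specificity phosphatases, 9 were compared, with a median of -0.27, and 2 passed 2-fold upward and 0 downward. These were DUSP22 (46.4 and 104.6 FPKM, log2 ratio 1.17), which acts in the JNK pathway, and DUSP28 (4.19 and 9.06 FPKM, 1.09), while DUSP14 stood at -0.58 and DUSP23 at -0.52. Of 8 MAP kinase phosphatases of other families, 6 were compared, with a median of 0.20, and 0 passed 2-fold. PTPN7, a tyrosine phosphatase of ERK and p38 in blood cells, was the most abundant of these without Dox and had 137.1 FPKM without Dox and 74.1 FPKM with Dox (log2 ratio -0.89). PPM1A and PPM1B, serine/threonine phosphatases of the stress kinases, stood at 0.69 and 0.52, and PPP2CA at -0.28.

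**Figure D4:**
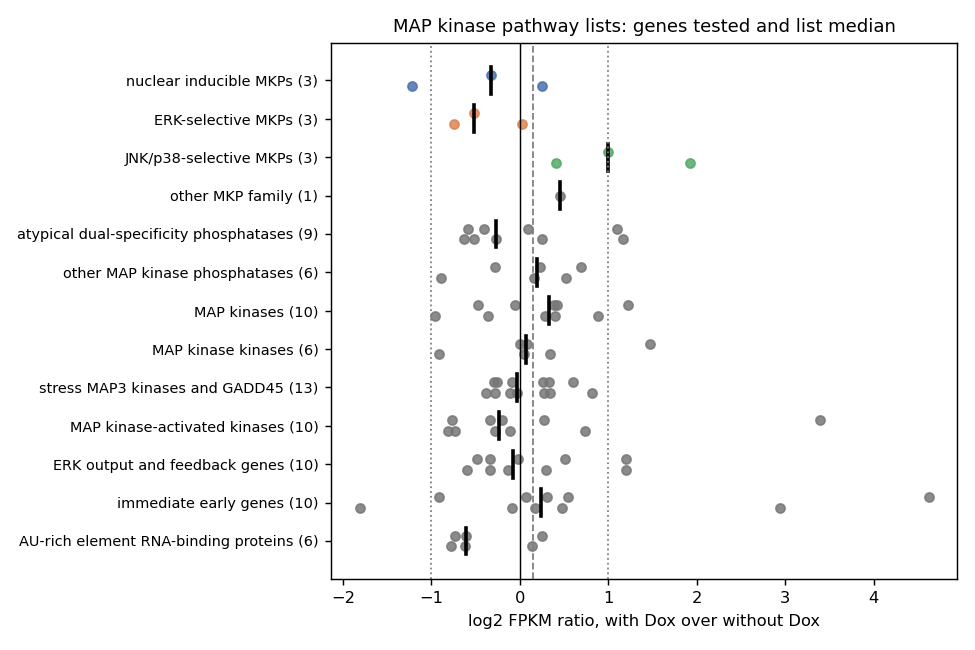
Log2 FPKM ratio, with Dox over without Dox, of each gene compared in the 3 phosphatase classes (coloured) and in 10 further lists of the MAP kinase pathway (grey), with the number of genes in brackets, black bars for list medians, dotted lines at 2-fold and a dashed line at the median of all genes (0.15). The median of the JNK/p38-selective class, 1.0, is the highest of the list medians, and that of the AU-rich element proteins, -0.61, the lowest.

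Of the substrates, all 10 MAP kinases were compared, with a median of 0.34, and 1 passed 2-fold upward and 0 downward. That gene was the JNK gene MAPK10 (1.98 and 4.77 FPKM, log2 ratio 1.23), named after its values were seen. The p38 genes were mixed, with MAPK12 at -0.96, MAPK11 at -0.47 and MAPK14 at 0.42. Of 7 MAP kinase kinases, 6 were compared, with a median of 0.07, and 1 passed 2-fold. It was MAP2K5, the activator of ERK5, with 7.64 and 21.4 FPKM (1.47). MAP2K1 and MAP2K2, the activators of ERK, stood at 0.05 and 0.08, and MAP2K3, an activator of p38, at -0.92. Of 15 stress MAP3 kinases and GADD45 genes, 13 were compared, with a median of -0.03 and 0 past 2-fold, and the named ones were MAP3K1 (0.82), TAOK1 (0.60), GADD45A (-0.38) and MAP3K13 (0.34).

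Of the outputs, the 10 kinases that MAP kinases activate had a median of -0.24, with 1 past 2-fold upward and 0 downward. RPS6KA2, an ERK-activated ribosomal S6 kinase, had 0.74 FPKM without Dox and 8.74 FPKM with Dox (log2 ratio 3.40). Like DUSP8, it reached 1 FPKM only with Dox, so it was compared only through the library in which it was higher. RPS6KA4 stood at -0.81, RPS6KA1 at -0.76 and RPS6KA5 at 0.74. Of 13 ERK output and feedback genes, 10 were compared, with a median of -0.08, and 2 passed 2-fold upward and 0 downward. These were the transcription factor ETV5 (13.9 and 32.2 FPKM, 1.2) and the pseudokinase TRIB1 (123.5 and 284.1 FPKM, 1.2), while ETV4 stood at -0.48 and SPRY1 at -0.34. DUSP6, itself an output of ERK, stood at 0.03. Of 13 immediate early genes, 10 were compared, with a median of 0.24, and 2 passed 2-fold upward and 1 downward. The higher ones were ATF3 (3.94 and 99.7 FPKM, 4.63) and JUN (2.32 and 18.5 FPKM, 2.94), beside IER2 at 0.55 and EGR1 at 0.47. The lower one was FOSL1 (4.46 and 1.2 FPKM, -1.81), named after its values were seen. The nuclear inducible phosphatases DUSP1, DUSP2 and DUSP4, which belong to the same kind of gene, ranged from -1.21 to 0.25. The immediate early genes compared ranged from -1.81 to 4.63, so wide a range that lying within it says little. FOS (0.07), FOSB (-0.09), JUND (0.18) and IER3 (-0.92), named after their values were seen, lay within the range of the phosphatases. JUNB (0.31), also named after its value was seen, EGR1, IER2, JUN and ATF3 lay above that range, and FOSL1 lay below it.

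The 6 AU-rich element RNA-binding proteins, which set the stability of short-lived RNAs such as those of inducible phosphatases, had a median of -0.61 with 0 past 2-fold. ZFP36, which marks such RNAs for decay, had 76.9 FPKM without Dox and 44.7 FPKM with Dox (log2 ratio -0.78), and KHSRP (-0.74), HNRNPD (-0.62) and ELAVL1 (-0.61) were lower too. The paralogs of ZFP36 in the list, named after their values were seen, went the other way, with ZFP36L1 at 0.14 and ZFP36L2 at 0.25. RNA stability was not measured, and the part of these proteins in the values of the phosphatases was not tested.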

How the data were processed

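RNA-seq of 2 libraries, 1 per condition, was analysed from the tables the authors deposited. The submitters' notes name HISAT2 2.1.0, StringTie 1.3.4d, Bowtie 0.12.2 and the build hg19, whereas the listed transcript identifiers match GENCODE release 29, from which the GRCh38 coordinates printed here were taken. The tables hold no coordinates of their own. The authors deposited expected counts, with reads shared between transcripts apportioned, and TPM and FPKM values, which divide these by effective length. The deposited gene length is the abundance-weighted mean over transcripts. Counts of 8 of the 9 members were whole. The study called genes with edgeR, whose dispersion cannot be estimated from 1 library per condition.

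Log2 ratios of FPKM were computed after adding 0.1 to each value, and genes past 2-fold were counted among those that reached 1 FPKM in either library. Counting intervals are 95% Clopper-Pearson intervals. Counts were rounded for the exact test of edgeR 4.0.16 (R 4.3.3, TMM, at least 10 counts, adjusted p under 0.05 and absolute log2 fold change above 1, assumed coefficient 0.4, alternative 0.2), and DESeq2 1.42.0 gave size factors. Transcript shares were solved from the deposited mean length. Python 3.11.15 with pandas 2.3.3, numpy 2.4.6, scipy 1.17.1 and matplotlib 3.10.9 was used. The steps were tested on simulated data.

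From each list up to 4 genes with the largest absolute ratio and at least 5 FPKM were named, besides the 9 members and SRD5A1. The values of 1 gene that this rule names are not reported here. The members and lists were chosen with earlier results of these data known. Alternatives were other pseudocounts, TPM, TMM factors, DESeq2 size factors, library-scaled counts (CPM) without length, other filters and shares of counts.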

Additional observations from a re-analysis of the deposited data

How the results depend on the processing

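No paired analysis was possible because each condition has 1 library. Of 58 member values under other settings, 36 stayed within their counting interval, 22 moved outside it and 0 of the called values changed sign. DUSP6, which was not called, did change sign, to -0.18 with TMM factors and with DESeq2 size factors and to -0.0018 from CPM. The nuclear inducible median was -0.53 with TMM factors and with DESeq2 size factors. The ERK-selective median was -0.42 from TPM, -0.73 with TMM factors, -0.72 with DESeq2 size factors and -0.39 from CPM. The JNK/p38-selective median was 0.74 with a pseudocount of 1 FPKM. With a pseudocount of 0.01 FPKM, as from TPM, 2 members were past 2-fold upward, since DUSP10 joined DUSP8. The edgeR test called 2 members with a coefficient of 0.2 and 0 with 0.4. As shares of counts, without and with Dox, the nuclear inducible members held 18.2% and 15.1%, the ERK-selective members 65.1% and 55.5% and the JNK/p38-selective members 16.7% and 29.5%, since counts are not divided by length. Over all genes, 2517 were past 2-fold upward and 953 downward, against 1945 and 1525 with TMM factors, 1606 and 651 with a pseudocount of 1 FPKM, 4727 and 1896 without a filter and 1255 and 603 at 5 FPKM or more. The longest transcript alone, an alternative chosen after seeing the data, gave -1.79 for DUSP2 and -0.33 for DUSP5. Depth limited DUSP8 most, with 61 counts without Dox. How far the ratios would vary between replicate cultures is not known.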

Other observations

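The genes that the deposited annotation assigns to inactivation of MAPK activity were also counted. Of 28 such genes 25 were compared, with a median log2 ratio of -0.33, and 2 were past 2-fold upward and 3 downward, beside 16.9% and 6.41% of all genes compared. Without the 9 phosphatases, 16 of 19 genes were compared, with a median of -0.41, and 1 was past 2-fold upward, DUSP22, and 2 downward. Of the lower ones, RGS3, a regulator of G protein signalling, had 22.95 FPKM without Dox and 11.3 FPKM with Dox, and a locus assembled by the authors without a gene symbol had 12.1 and 5.16 FPKM. CAV1, the main protein of caveolae, stood at -0.76.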
